A study of Homo sapiens with 24 samples.

Results

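The comparison set H838 cells that had grown beside endothelial cells against H838 cells that had grown beside more of their own kind, 10, 15 and 24 h after the monolayer was scratched. H838 is a line of human non-small cell lung cancer, and HPAEC are primary human pulmonary artery endothelial cells. The comparison used 8 of the 24 arrays of the study, 4 from each co-culture, taken by their time and co-culture. This comparison and the gene lists below were chosen with earlier results of these data known. Each co-culture gave 1 array for 10 h, 1 for 15 h and a duplicate for 24 h. In both groups a confluent H838 layer in a well was scratched repeatedly, while the neighbour cells grew on a porous filter hung above it, so that the layers shared medium without touching, and the H838 layer was lysed for RNA. Both groups were kept in the endothelial medium, which holds low serum with EGF, basic FGF, an IGF analogue, VEGF, ascorbic acid, heparin and hydrocortisone. The controls therefore received these growth factors and the glucocorticoid too, and all 8 layers were wounded. As a model this is 1 tumour line and a monolayer without direct contact, no unscratched cells were sampled after 0 h, and the labels do not say whether the duplicates came from separate cultures. The p-values thus measure only the spread between these arrays, part of which may be technical. The title of the study names TNF and SDF-1 and tumour cell migration, and the comparison asks which tumour cell transcripts stood apart beside endothelial cells late after wounding.

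Cells meet a shortage of amino acids or a load of misfolded protein by slowing translation and making the transcription factor ATF4, which with its partner CHOP drives genes that make and import amino acids. Reactive oxygen, electrophiles and heme act through the factor NRF2, whose targets include heme oxygenase and enzymes that renew thioredoxin and glutathione. Zinc and other metals act through the factor MTF1, which drives the metallothioneins, small proteins that bind metal. The NRF2 pathway is often active in lung tumours.

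At a detection p-value under 0.01 the arrays held 15543 to 17555 detected probes (32.9% to 37.1%), with median raw intensities of 108.8 to 121.8. The H838 array of 15 h had the highest mean raw intensity, 688.8, against 555.1 to 601.5 on the others. The arrays sat on 2 BeadChips, the glass carriers on which they are hybridized together. Chip 1 held 3 of the 4 HPAEC arrays and 0 H838 arrays, and chip 2 held the HPAEC array of 24 h, replicate 2, with all 4 H838 arrays. For 7 of the 8 arrays chip and co-culture therefore cannot be told apart, and the value on chip 2 at 24 h, where that HPAEC array was set against the mean of both H838 arrays, is given beside most list medians and many of the genes described. One label of this HPAEC array names H838 as its second cell line, while its title and its co-culture label name HPAEC, and it was grouped by the latter. On the second principal component of the 8 arrays (15.7% of the variance) it scored 6.11, beside the HPAEC arrays of chip 1 at 4.98, 5.24 and 10.5 and apart from the H838 arrays at -9.61 to -5.02. The first component (36.5%) followed time.

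Levels are log2 intensities after background correction and quantile normalization, and a difference is HPAEC minus H838 on that scale, given ± SE from limma over the 8 arrays with time as a factor. Of 10178 genes tested, 0 passed a Benjamini-Hochberg adjusted p of 0.05 (0%), and the smallest adjusted p was 0.0960. At an adjusted p under 0.10 there were 15 genes (0.147%). At an unadjusted p under 0.05 there were 1378 (13.5%), of which 713 were higher beside HPAEC (7.01%) and 665 lower (6.53%). No gene is therefore called changed here, and counts of list members at an unadjusted p under 0.05 are to be read against these shares. The median difference over all genes was 0.0064, and the SD over genes between the 24 h duplicates was 0.192 beside HPAEC and 0.198 beside H838. The 24 genes with the smallest p, 12 in each direction, had adjusted p-values of 0.0960 to 0.141. Since RNA was taken from whole layers, fewer cells with a transcript and less transcript per cell cannot be told apart in any of the values below.

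Of the 12 higher genes with the smallest p, 3 belonged to the amino acid response, DDIT3, PCK2 and ASNS. DDIT3 encodes CHOP, the transcription factor that partners ATF4 under lasting stress. Its level beside HPAEC was 8.73 at 10 h, 9.08 at 15 h, and 9.49 and 9.63 at 24 h. Beside H838 it was 8.23, 8.47, 8.89 and 8.87 in the same order. At each time the HPAEC arrays lay above the H838 arrays of that time, while over all times the groups overlapped. The difference was 0.62 ± 0.07, or 1.53-fold (limma adjusted p = 0.0960), and 0.75 on chip 2. STC2, a secreted glycoprotein induced by stress of the endoplasmic reticulum, differed by 0.68 ± 0.14 (adjusted p = 0.153, 0.60 on chip 2). It read 6.21, 6.61, 7.13 and 6.56 beside HPAEC and 5.97, 5.92, 6.03 and 5.89 beside H838, so all 4 HPAEC arrays were above all 4 H838 arrays. Its duplicates beside HPAEC, 1 on each chip, differed by 0.57, and it was detected on 3 of the 4 H838 arrays. The STC2 difference was 0.31 without background correction and with the authors' normalized values, and 0.63 when arrays were scaled by their medians only.

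Among the regulators of this response, 6 of 15 tested were higher at an unadjusted p under 0.05 and 0 were lower, with a median difference of 0.18 (0.19 on chip 2). That median was 0.107 without the H838 array of 24 h, replicate 1, 0.109 without background correction, 0.11 with the authors' normalized values and 0.059 when arrays were scaled by their medians only. Median scaling moved the median of all genes to -0.091, from 0.0064 in the main fit. Values under median scaling, here and below, are to be read against that shift. Besides DDIT3 and STC2 the higher regulators were PPP1R15A at 0.28 ± 0.08, DDIT4 at 0.27 ± 0.07, EIF4EBP1 at 0.25 ± 0.08 and TRIB3 at 0.25 ± 0.08. PPP1R15A (GADD34) brings a phosphatase to the initiation factor eIF2 and so restarts translation, DDIT4 restrains the growth kinase complex mTORC1, EIF4EBP1 holds back cap-dependent translation, and TRIB3 is a pseudokinase target of CHOP. ATF4 itself, which is controlled mostly at translation, gave 0.03 ± 0.08, and that value lay below 0 under 2 other ways of scaling the arrays (-0.05 and -0.02). EIF2AK3, the kinase PERK that starts the response in the endoplasmic reticulum, gave -0.18 ± 0.10 without passing. The factors ATF3, CEBPB and CEBPG each gave 0.12 and did not pass.

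**Figure D1:**
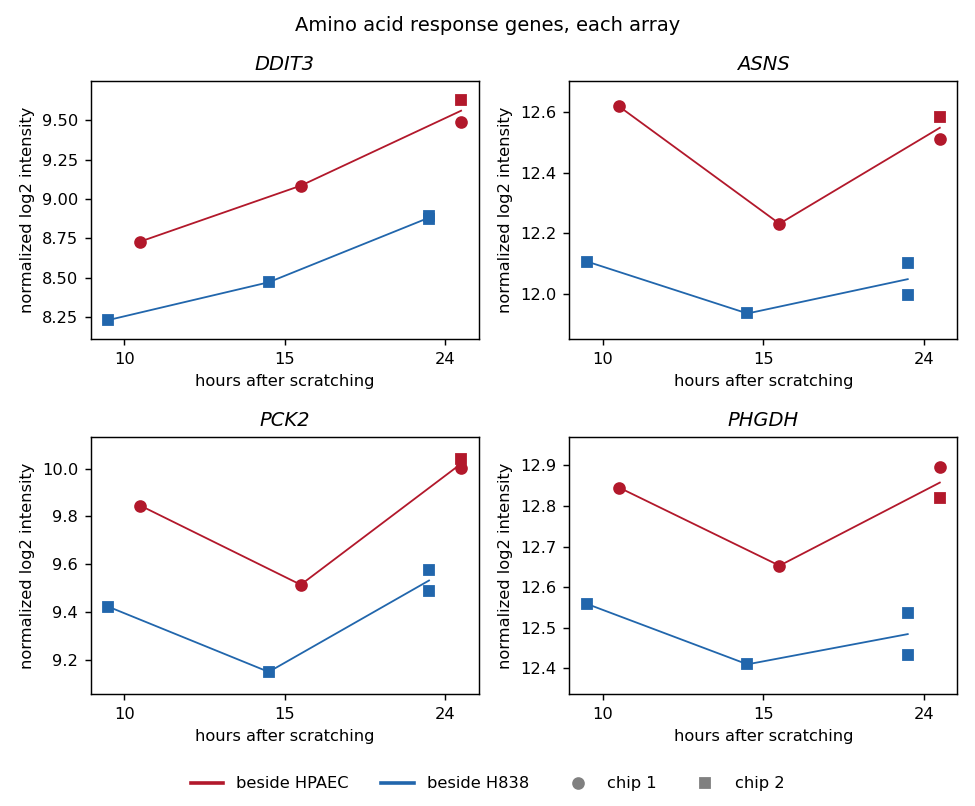
Normalized log2 intensity of DDIT3, ASNS, PCK2 and PHGDH on each array (y axis) at 10, 15 and 24 h after scratching (x axis), red beside HPAEC and blue beside H838, circles for chip 1 and squares for chip 2, with lines through the mean at each time. At every time the HPAEC arrays lie above the H838 arrays, and at 24 h the HPAEC square, on the same chip as the blue squares, lies with the HPAEC circle.

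Of 13 tested enzymes that make serine, asparagine and one-carbon units, 8 were higher at an unadjusted p under 0.05 and 0 lower. The median was 0.22 (0.21 on chip 2, 0.127 under median scaling). CTH (-0.14) and ALDH18A1 (-0.05) lay below 0. ASNS, the asparagine synthetase, is one of the best known ATF4 targets. Beside HPAEC it read 12.62, 12.23, 12.51 and 12.59 (10 h, 15 h and both 24 h arrays), against 12.11, 11.93, 11.996 and 12.10 beside H838. The groups did not overlap, and the difference was 0.45 ± 0.07 (adjusted p = 0.0992, 0.54 on chip 2). PCK2, the mitochondrial phosphoenolpyruvate carboxykinase, read 9.85, 9.51, 10.00 and 10.04 against 9.42, 9.15, 9.58 and 9.49. Its groups overlapped through the 15 h HPAEC array and 1 H838 array of 24 h, and the 15 h array was the lowest of each co-culture. It differed by 0.44 ± 0.07 (adjusted p = 0.0974, 0.51 on chip 2). PHGDH, the first enzyme of serine synthesis, read 12.85, 12.65, 12.90 and 12.82 against 12.56, 12.41, 12.54 and 12.43, again without overlap, and differed by 0.32 ± 0.07 (0.33 on chip 2).

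PSAT1, the next enzyme of that route, differed by 0.31 ± 0.08 and CBS, which leads homocysteine towards cysteine, by 0.26 ± 0.09. The proline enzyme PYCR1 gave 0.23 ± 0.09, the mitochondrial folate enzyme MTHFD2 0.22 ± 0.08 and its relative MTHFD1L 0.18 ± 0.07. For PSAT1 the difference in the chip 2 pair of replicate 2 was 0.10 against 0.43 in the replicate 1 pair of 24 h. SHMT2 and SHMT1, which pass a carbon unit from serine to folate, gave 0.16 ± 0.07 and 0.14 ± 0.08 and did not reach an unadjusted p of 0.05. By their list medians, import and loading of amino acids stood closer to the background. The share of higher aminoacyl-tRNA synthetases, however, was above the 7.01% of all genes. Of 7 transporters 1 was higher, SLC7A5, the light chain of the large neutral amino acid carrier (0.29 ± 0.07), and the median was 0.045 (-0.057 under median scaling). Of 18 cytosolic aminoacyl-tRNA synthetases 6 were higher and 0 lower, AARS1, YARS1, KARS1, MARS1, WARS1 and VARS1 at 0.18 to 0.28, with a list median of 0.047 (-0.033 under median scaling). Within AARS1 the replicate 2 pair gave 0.68 and the other pairs 0.05 to 0.24. Of 18 chaperones and XBP1 targets of the endoplasmic reticulum 2 were higher, HSPA5, the chaperone BiP (0.26 ± 0.07), and its co-chaperone SDF2L1 (0.24 ± 0.10). The 1 that was lower, the degradation adaptor SEL1L (-0.39 ± 0.15), gave 0.01 on chip 2 and was detected on 1 of 4 HPAEC arrays.

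CCAAT enhancer binding protein and ATF response elements, at which ATF4 binds, contain the letters TGATGNAA. These letters were searched on both strands in the 250 bases before each RefSeq start (GRCh38.p14). Of 28 tested regulators and synthesis enzymes 24 had a promoter in the table, and 5 of these held a match, against 3.89% of 27305 genes. Shown are the matches of 2 enzymes described above, on the gene's strand with the match in capitals, at chr7:97872439-97872506 (minus strand) for ASNS and chr6:150866327-150866394 (plus strand) for MTHFD1L.
ASNS: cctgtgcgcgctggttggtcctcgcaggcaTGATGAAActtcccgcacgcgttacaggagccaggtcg
MTHFD1L: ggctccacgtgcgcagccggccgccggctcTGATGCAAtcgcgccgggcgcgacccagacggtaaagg
The other 3 matches were in ATF3, CEBPG and JDP2. DDIT3, PCK2, PHGDH and PSAT1 held no match in this window. A match is a description of the letters and not a measured site.

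Among the lower genes heme oxygenase had the largest difference. HMOX1, which breaks down heme, read 8.73 at 10 h, 8.57 at 15 h, and 8.86 and 8.78 at 24 h beside HPAEC. Beside H838 it read 9.19, 9.24, 10.17 and 10.11. No HPAEC array reached the lowest H838 array, and the 24 h H838 duplicates stood highest. The difference was -0.94 ± 0.14, 1.92-fold in favour of the H838 neighbours (adjusted p = 0.0974). The pairs of 10 h, 15 h and 24 h gave -0.46, -0.67, -1.31 and -1.33, and the value on chip 2 was -1.36. It was the largest difference of all 10178 genes in either direction.

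Of 16 tested NRF2 and redox genes, 0 were higher and 6 lower at an unadjusted p under 0.05, with a median of -0.12 (-0.20 on chip 2, -0.21 under median scaling, -0.067 with the authors' values and -0.073 with no detection filter). TXNRD1, the thioredoxin reductase, read 10.48, 10.58, 10.77 and 10.71 beside HPAEC against 10.79, 10.96, 11.07 and 11.07 beside H838. The groups did not overlap, the 4 pairs gave -0.31, -0.38, -0.30 and -0.37, and the difference was -0.34 ± 0.07 (adjusted p = 0.141, -0.36 on chip 2). SRXN1, which repairs oxidized peroxiredoxin, differed by -0.34 ± 0.07, and ME1, the cytosolic malic enzyme that makes NADPH, by -0.34 ± 0.09. NQO1, a quinone reductase, gave -0.30 ± 0.08, and its chip 2 value was smaller, -0.09. GCLC, the catalytic subunit that starts glutathione synthesis, gave -0.28 ± 0.07 with no overlap between the groups. The factor NFE2L2, which encodes NRF2, its target GCLM, glutathione reductase GSR and thioredoxin TXN gave -0.09 to -0.14 and did not pass. TXNIP, the inhibitor of thioredoxin, gave -0.23 ± 0.08, with -0.06 and -0.07 at 10 and 15 h against -0.36 and -0.41 at 24 h.

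All 6 tested metallothionein and zinc export genes were lower at an unadjusted p under 0.05, with a median of -0.35 (-0.61 on chip 2, -0.54 with chip as a fixed term). MT1E read 11.71, 11.23, 10.94 and 10.97 beside HPAEC and 12.01, 11.37, 11.81 and 11.63 beside H838. The 10 h HPAEC array lay above 2 of the H838 arrays, and at 24 h both HPAEC arrays were the lowest of all 8. The difference was -0.49 ± 0.11 (adjusted p = 0.172, -0.75 on chip 2). MT1X read 11.27, 10.50, 10.30 and 10.04 against 11.39, 10.53, 10.92 and 11.04, close together at 10 and 15 h and apart at 24 h. Its difference was -0.45 ± 0.14, and on chip 2 -0.94. MT1H gave -0.39 ± 0.11, MT2A -0.29 ± 0.08 and MT1F -0.22 ± 0.07. SLC30A1, the zinc exporter of the cell membrane, gave -0.32 ± 0.08. The metallothionein genes are near-identical copies, so their probes may read one another and do not count as independent. Hydrocortisone, to which MT2A responds, was in the medium of both groups, and of 9 tested glucocorticoid-responsive genes 1 was higher and 1, MT2A, was lower.

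**Figure D2:**
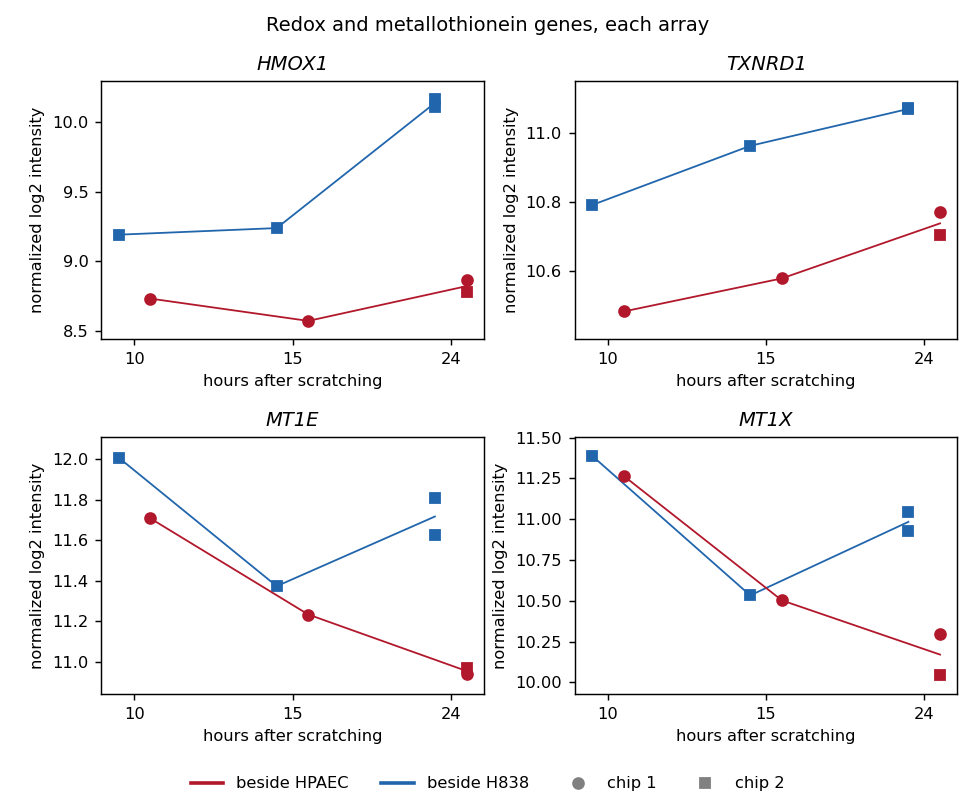
Normalized log2 intensity of HMOX1, TXNRD1, MT1E and MT1X on each array (y axis) at 10, 15 and 24 h after scratching (x axis), red beside HPAEC and blue beside H838, circles for chip 1 and squares for chip 2, with lines through the mean at each time. HMOX1 and TXNRD1 do not overlap between co-cultures, while the metallothioneins lie close together at 15 h and apart at 24 h, where the red square shares its chip with the blue ones.

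Metal response elements contain TGCACNC or TGCGCNC and antioxidant response elements contain TGACNNNGC, both searched as above. Of the 6 metal genes 4 had a promoter in the table and all 4 held the metal letters, which 28.5% of all genes held. Of the 16 redox genes 12 had one and 4 held the antioxidant letters, against 13.2% of all genes. Shown are the metallothionein promoter with 4 matches, at chr16:56682290-56682453 (plus strand), and 1 match each of a reductase and of the malic enzyme, at chr12:104286900-104286968 (plus strand) and chr6:83431150-83431218 (minus strand), with matches on either strand in capitals.
MT1X: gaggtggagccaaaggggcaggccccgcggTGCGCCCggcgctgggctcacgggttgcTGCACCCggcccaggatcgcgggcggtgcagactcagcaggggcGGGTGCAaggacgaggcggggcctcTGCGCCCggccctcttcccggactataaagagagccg
TXNRD1: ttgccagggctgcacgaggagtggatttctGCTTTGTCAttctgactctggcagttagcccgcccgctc
ME1: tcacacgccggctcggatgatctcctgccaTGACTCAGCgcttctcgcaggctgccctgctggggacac
The antioxidant letters were also held by GCLM (-0.12) and by PGD, which was above the control (0.13). Of the genes described above, NQO1, GCLC, SRXN1, TXN and NFE2L2 held no match to the antioxidant letters in this window.

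The signals named in the title were mostly below detection in the tumour cells. TNF, the SDF-1 receptors CXCR4 and ACKR3, and the NF-kB targets IL6 and CCL2 were detected on 0 of the 8 arrays. CXCL12, which encodes SDF-1, was detected with 1 of its 3 probes, on 1 HPAEC array and 4 H838 arrays, and the H838 arrays alone met the detection filter. That probe read 5.66, 5.42, 5.54 and 5.88 beside HPAEC and 5.95, 5.96, 5.88 and 6.12 beside H838, a difference of -0.35 ± 0.10 (adjusted p = 0.215) that was -0.12 on chip 2. TNFRSF1A, the main TNF receptor, was detected on all 8 arrays and gave -0.15 ± 0.07 without reaching an unadjusted p of 0.05. The second receptor TNFRSF1B, detected on 2 HPAEC and 4 H838 arrays, gave -0.55 and -0.65 at 10 and 15 h but 0.25 and 0.01 at 24 h.

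Of 13 tested NF-kB and TNF targets 4 were higher and 0 lower, with a median of 0.15 (0.13 on chip 2, 0.072 under median scaling and 0.0039 with no detection filter). They were 3 chemokine genes that draw neutrophils and the mitochondrial superoxide dismutase SOD2 (0.18 ± 0.07). CXCL1 read 8.79, 8.30, 7.27 and 7.13 beside HPAEC and 8.52, 8.05, 6.51 and 6.36 beside H838. It was above the control at each time, and the gap was 0.27 and 0.24 at 10 and 15 h and 0.76 in both pairs of 24 h. Over the 4 pairs the difference was 0.51 ± 0.11 (adjusted p = 0.153, 0.69 on chip 2). CXCL6 gave 0.28 ± 0.09 (0.13 on chip 2) and CXCL5 0.27 ± 0.10 (0.53 on chip 2). For CXCL6 the replicate 2 pair of 24 h gave 0.05 and the other pairs 0.18 to 0.46. For CXCL5 that pair gave 0.69 and the other pairs 0.10 to 0.19. The related CXCL8 gave -0.16 ± 0.12, below the control at 10 and 15 h (-0.32 and -0.56) and above it at 24 h (0.21 and 0.03). NFKBIA, the inhibitor that NF-kB itself induces, gave 0.15 ± 0.08 and did not pass.

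Of the 12 higher genes with the smallest p, VGF and ADM encode secreted peptides. VGF, a neuropeptide precursor, read 10.77, 10.49, 9.89 and 10.00 beside HPAEC and 10.28, 9.95, 9.55 and 9.56 beside H838. It was above the control at each time, at lower levels in both groups at 24 h, and differed by 0.45 ± 0.07 (adjusted p = 0.0974, 0.44 on chip 2). ADM, the vasoactive peptide adrenomedullin, differed by 0.49 ± 0.08 (adjusted p = 0.108, 0.48 on chip 2). DKK1, a secreted Wnt inhibitor, gave 0.34 ± 0.08, the growth factor binder IGFBP3 0.27 ± 0.10 and the activin binder FST -0.22 ± 0.09. For IGFBP3 the pair of 15 h gave 0.61 and the other pairs 0.06 to 0.26, with 0.15 on chip 2. Over all 24 arrays with chip as a term IGFBP3 gave 0.04 ± 0.25. Of 16 tested hypoxia genes 4 were higher and 2 lower, and of 22 glycolysis genes 0 and 1. ANKRD37, a hypoxia-inducible factor target, gave 0.46 and 0.55 at 10 and 15 h but 0.04 and 0.11 at 24 h. EGLN1, the oxygen-sensing hydroxylase, gave 0.23 ± 0.09 over the 8 arrays and -0.06 on chip 2. VEGFA, the endothelial growth factor, gave 0.18 ± 0.09 and did not pass. EGFR, the receptor of the EGF in the medium, gave 0.27 ± 0.08.

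Mitotic genes were more often higher than lower. Of 34 tested G2/M genes 9 reached an unadjusted p under 0.05 in the higher direction and 0 in the lower, with a median of 0.078 (0.039 on chip 2, and -0.00073 when arrays were scaled by their medians only). PLK1, a kinase of mitotic entry and exit, read 8.92, 8.59, 8.77 and 8.71 beside HPAEC and 8.66, 8.23, 8.33 and 8.39 beside H838, a difference of 0.34 ± 0.07 (0.35 on chip 2) with overlap through 1 array of each group. The kinesin KIF2C gave 0.32 ± 0.09 and CDC20, the activator of anaphase, 0.27 ± 0.07, both without overlap. The centromere histone CENPA, the kinases AURKB and BUB1, the kinesin KIF20A, the cyclin CCNA2 and the ubiquitin enzyme UBE2C gave 0.19 to 0.26. On chip 2 AURKB, KIF20A and CCNA2 gave 0.06 to 0.09, UBE2C 0.13, BUB1 and KIF2C 0.18, CDC20 0.26 and CENPA 0.28. In BUB1, CCNA2 and UBE2C the replicate 1 pair of 24 h was at or just below 0 (-0.06 to -0.02), and in KIF20A the replicate 2 pair was (-0.06). Of 29 tested G1/S and replication genes 4 were higher and 0 lower, the cyclins CCNE1 (0.23 ± 0.08) and CCND1 (0.19 ± 0.07) and the licensing and replication factors CDT1 (0.23 ± 0.08) and CDC45 (0.19 ± 0.08). The median was 0.089, with 0.051 on chip 2, 0.016 under median scaling and 0.134 without the HPAEC array of 24 h, replicate 2.

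Genes of adhesion, matrix and movement went both ways. Of 10 tested junction and keratin genes 0 were higher and 3 lower. DSC2, a desmosomal cadherin, gave -0.39 ± 0.08, the desmosomal plakin DSP -0.40 ± 0.09 with detection on 2 of 4 HPAEC arrays, and the tight junction scaffold TJP1 -0.18 ± 0.07 with no overlap. CTNND1, the p120 catenin that holds cadherins at the membrane, was higher by 0.41 ± 0.07 and detected on 4 HPAEC and 2 H838 arrays. Of 13 mesenchymal and matrix genes 1 was higher, TGFBI, a TGF-beta induced matrix protein (0.39 ± 0.07, no overlap), and 1 lower, the repressor ZEB2 (-0.40 ± 0.10, no overlap). The fibrillar collagen COL3A1 was lower on each HPAEC array than on any H838 array (-0.31 ± 0.07). So was the brighter probe of COL1A2 (-0.22 ± 0.07). Another COL1A2 probe, detected on all arrays, had mean raw intensities of 7759 beside HPAEC and 7834 beside H838. The collagen COL1A1 had 590 and 581. TAGLN, an actin-binding protein of smooth muscle, gave 0.38 ± 0.10, with -0.03 at 15 h and 0.38 to 0.59 in the other pairs. It gave 0.45 on chip 2 and 0.24 ± 0.15 over all 24 arrays with chip as a term. Among integrins ITGA5, the fibronectin receptor chain, gave 0.23 ± 0.07 and ITGAV -0.17 ± 0.07. Of 14 proteases and inhibitors 1 was higher, the stromelysin MMP10 (0.21 ± 0.09). The collagenase MMP1 gave 0.22 ± 0.16, with -0.48 at 15 h and 0.26 to 0.77 in the other pairs, which is within its spread. FOSL1, a subunit of AP-1, gave 0.37 ± 0.07 with detection on 3 HPAEC and 2 H838 arrays, and JUN 0.20 ± 0.08. The AP-1 gene FOSL2 gave -0.27 ± 0.11 over the 8 arrays but 0.00 on chip 2.

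Of 18 tested interferon-stimulated genes 5 were higher and 0 lower, with a median of 0.10 (0.14 on chip 2, 0.00015 under median scaling). TAP1, which loads peptides onto class I molecules, read 10.53, 10.74, 10.49 and 10.43 beside HPAEC and 10.06, 10.35, 10.05 and 10.19 beside H838. The groups did not overlap, and the difference was 0.38 ± 0.07 (adjusted p = 0.141, 0.31 on chip 2). The immunoproteasome subunit PSMB9 gave 0.21 ± 0.09, the factor IRF1 0.19 ± 0.08 and the ubiquitin-like ISG15 0.19 ± 0.08. OAS1, an antiviral synthetase, gave 0.46 ± 0.15 but was detected on 1 of 4 H838 arrays, so that it met the detection filter through the HPAEC arrays alone, with pairs from 0.14 to 1.14.

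The clock list split, with 4 of 11 tested genes higher and 2 lower. The activator BMAL1 gave 0.37 ± 0.09, at levels detected on 2 arrays of each group, and the repressors PER2 and PER3 0.33 ± 0.07 and 0.24 ± 0.10. The output factor DBP gave 0.33 ± 0.11, the activator CLOCK -0.22 ± 0.08 and the nuclear receptor NR1D2 -0.28 ± 0.07. PER2 read 7.72, 7.27, 8.32 and 8.33 beside HPAEC and 7.32, 6.85, 8.06 and 8.09 beside H838, so both groups were lowest at 15 h and highest at 24 h. Among small nuclear RNAs 3 of 9 were higher, RNU4ATAC of the minor spliceosome (0.44 ± 0.07, adjusted p = 0.0974) and RNU6-1 (0.34 ± 0.08) among them. These RNAs have near-identical copies that a probe may not tell apart.

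The other genes among the 24 with the smallest p belong to no common list. TPT1-AS1, a long non-coding RNA, was detected on all 4 HPAEC arrays and on 0 H838 arrays. It read 6.23, 6.34, 6.48 and 6.69 against 5.75 to 5.81, and against the lowest detected signal it was at least 1.43-fold higher. It met the detection filter only through the HPAEC arrays, so its difference and its place among the 24 are a description. Higher too were KIAA1958 (0.57 ± 0.09), the oxidoreductase-like GFOD1 (0.46 ± 0.07), the coiled-coil protein CCDC85B (0.45 ± 0.07) and LRWD1, a partner of the origin recognition complex (0.43 ± 0.07). On the lower side TRPS1, a GATA-type repressor, gave -0.58 ± 0.10, FNIP2, which binds folliculin, -0.55 ± 0.08, TMEM119, a membrane protein known from bone and microglia, -0.55 ± 0.09, and GATAD2B, a subunit of the NuRD complex, -0.53 ± 0.07. KIF24, a kinesin that restrains cilia, gave -0.50 ± 0.10, was detected on 1 of 4 HPAEC arrays and met the filter through the 4 H838 arrays, so it too is a description. The flippase subunit TMEM30A, the lens crystallin CRYBA1, the adaptor DOK4, the lipid enzyme NAPEPLD, the peptide ligase RIMKLB and PCYOX1L gave -0.46 to -0.39. GATAD2B read 6.98, 7.15, 7.20 and 7.30 beside HPAEC and 7.66, 7.53, 7.79 and 7.77 beside H838, and was among the 14 of the 24 whose groups did not overlap. Over all genes, 272 (2.67%) had every HPAEC array above every H838 array and 176 (1.73%) every one below. All 24 had the same sign in each of the 4 pairs, which 11.8% of all genes had in the higher and 9.75% in the lower direction. The 24 were chosen by the p-values of these arrays, so the counts over them describe the choice.

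**Figure D3:**
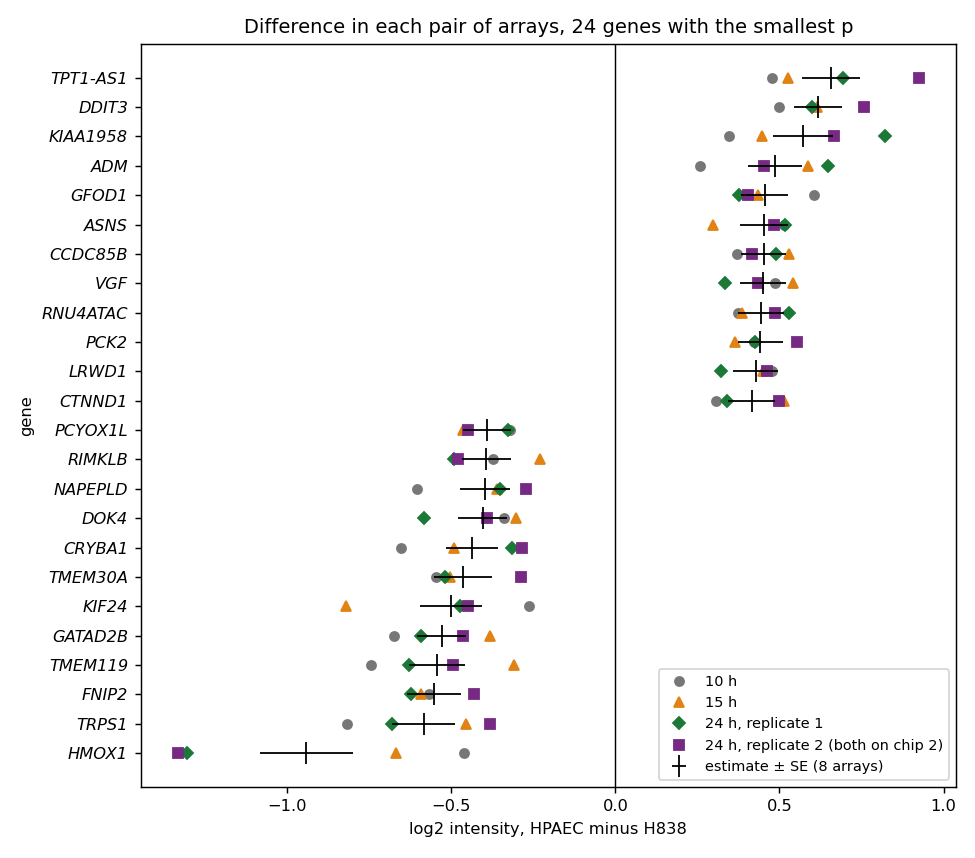
Difference in log2 intensity, HPAEC minus H838 (x axis), for the 24 genes with the smallest p (y axis), with 1 symbol for each of the 4 pairs of arrays and a cross for the estimate ± SE over the 8 arrays. The squares are the replicate 2 pair of 24 h, which lies on chip 2, and they fall on the same side of 0 as the other pairs for each gene.

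The direction was then read on the HPAEC array that shared chip 2 with the controls. For the 12 higher genes the chip 2 differences ranged from 0.40 to 0.92 and for the 12 lower genes from -1.36 to -0.24, all with the sign of the estimate. These values share arrays with the estimate. Calls were therefore also made from the other 6 arrays and compared with the replicate 2 pair of 24 h, which those calls did not use. The 6 arrays gave 0 genes at the adjusted threshold (smallest adjusted p = 0.225). Of the 989 genes at an unadjusted p under 0.05, 676 (68.4%) had the same sign in the unused pair, 329 of 449 higher and 347 of 540 lower. Over all 10178 genes the share was 58.9%. Direction thus held more often among the 989 than among all genes.

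A fit of all 24 arrays estimated chip beside the times and gave 1 co-culture effect for each of 3 windows, 0 to 2 h, 3 to 5 h and 10 to 24 h. For 10 to 24 h it gave 0 genes at the adjusted threshold (smallest adjusted p = 0.163) and 770 at an unadjusted p under 0.05 (7.57%). Of the 24 genes, 22 kept their sign with an unadjusted p under 0.05, and the exceptions in p were KIF24 and NAPEPLD. The 10 to 24 h effect uses the same late arrays by which the 24 were chosen, so this count largely describes the choice. HMOX1 was at -1.01 ± 0.17, DDIT3 at 0.59 ± 0.12, ASNS at 0.42 ± 0.10 and PCK2 at 0.42 ± 0.08 in that fit. The list medians were 0.19 for serine, one-carbon and asparagine synthesis, 0.16 for the stress regulators, -0.18 for the redox genes and -0.44 for the metallothioneins. For PLK1 the chip-adjusted value was 0.30 ± 0.15, for CYP51A1, the cholesterol enzyme that gave -0.51 ± 0.13 over the 8 arrays, -0.18, and for FOSL2 0.08.

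**Figure D4:**
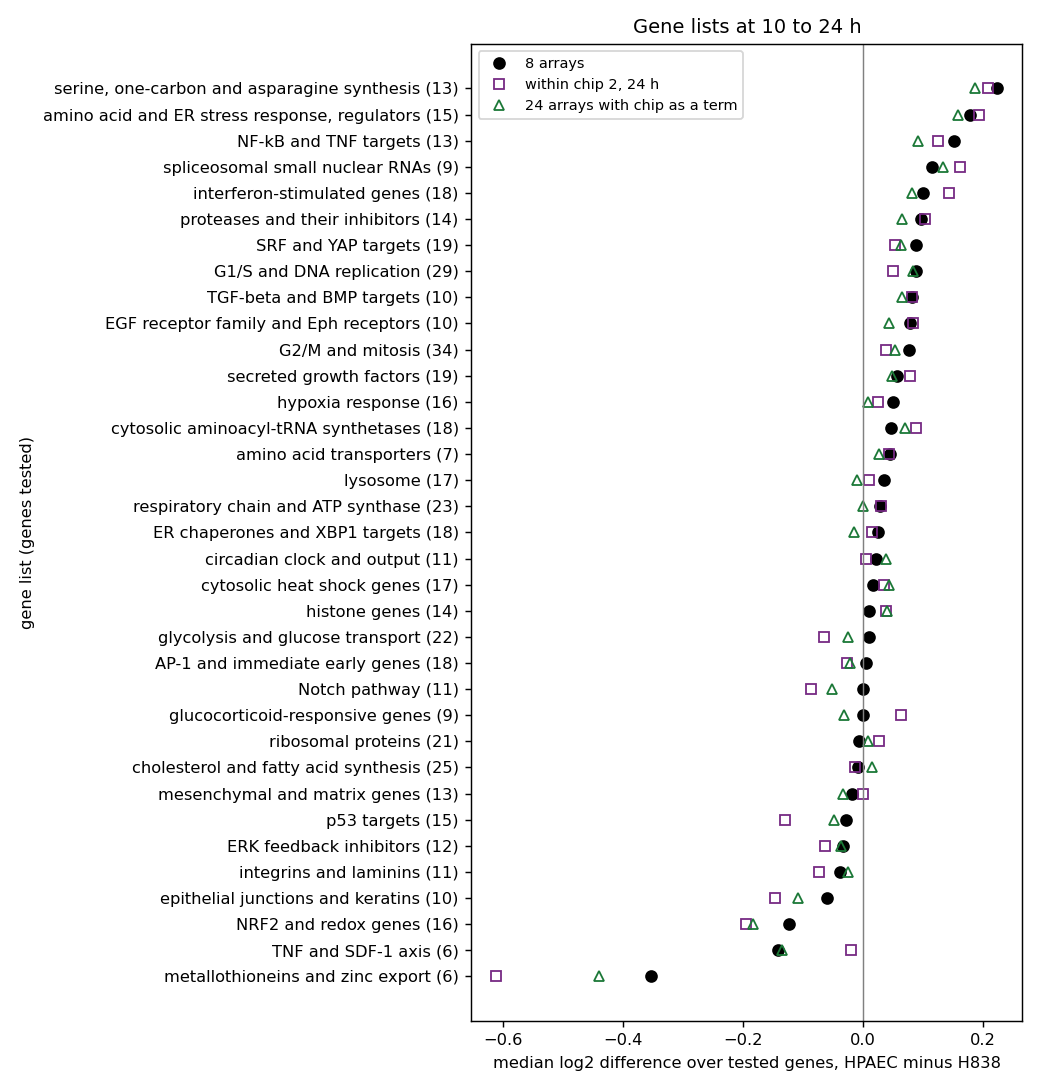
Median difference in log2 intensity, HPAEC minus H838 (x axis), over the tested genes of each list with at least 5 of them, cell type markers left out (y axis, number of genes in brackets), from the 8 arrays (circles), within chip 2 at 24 h (squares) and from 24 arrays with chip as a term (triangles). Among the lists drawn, amino acid synthesis and stress regulators stand at the top under each of these readings and the metallothioneins at the bottom, where the chip 2 value is -0.61.

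The same fit tested whether the difference at 10 to 24 h departed from the mean of the earlier windows. The count was 0 genes at the adjusted threshold (smallest adjusted p = 0.497) and 486 at an unadjusted p under 0.05 (4.78%). HMOX1 had one of the largest departures, with a co-culture difference of -0.02 ± 0.14 at 0 to 2 h, -0.30 ± 0.21 at 3 to 5 h and -1.01 at 10 to 24 h, a step of -0.85 ± 0.17 (limma adjusted p = 0.497). MT1E went from 0.13 ± 0.10 and 0.00 ± 0.15 to -0.56 ± 0.12, a step of -0.63 ± 0.12 (limma adjusted p = 0.497). The metallothionein list had medians of -0.0052 at 0 to 2 h and -0.079 at 3 to 5 h. DDIT3 went another way, with 0.99 ± 0.10, 0.32 ± 0.15 and 0.59 ± 0.12 in the 3 windows, so its late difference was near the mean of the earlier ones. TRIB3 gave 0.81 ± 0.11 and 0.66 ± 0.17 before and 0.18 ± 0.14 late, a step of -0.56 ± 0.14 (limma adjusted p = 0.764). PCK2, ASNS and VGF differed by about as much before 10 h as after, by 0.39 to 0.64 in the earlier windows.

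**Figure D5:**
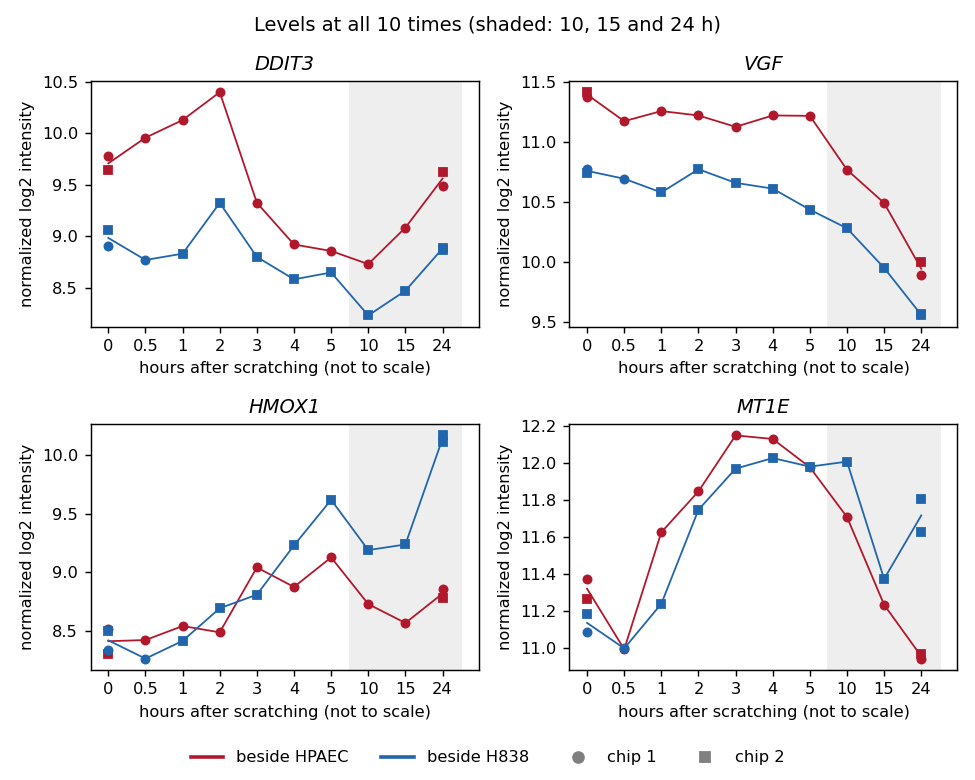
Normalized log2 intensity of DDIT3, VGF, HMOX1 and MT1E (y axis) at all 10 times after scratching (x axis, not to scale), red beside HPAEC and blue beside H838, circles for chip 1 and squares for chip 2, lines through the mean at each time and shading over 10 to 24 h. DDIT3 and VGF are higher beside HPAEC at every time, while the largest gaps of HMOX1 and MT1E are at 24 h.

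Within the late arrays, the difference at 24 h was set against that at 10 and 15 h. This gave 0 genes at the adjusted threshold (smallest adjusted p = 0.626) and 691 at an unadjusted p under 0.05 (6.79%). HMOX1 was lower beside HPAEC by a further -0.76 ± 0.14 at 24 h, MT1X by -0.74 ± 0.16 and MT1E by -0.54 ± 0.15, with limma adjusted p-values of 0.626 to 0.630. The CXCL1 difference was larger at 24 h by 0.51 ± 0.15 (limma adjusted p = 0.678). CXCL8 and TNFRSF1B, below the control at 10 and 15 h, gave 0.56 ± 0.15 and 0.73 ± 0.15 for this contrast, without passing. DDIT3 (0.12 ± 0.14) and TXNRD1 (0.01) gave no such step.

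Several lists lay near the background in both directions. Respiratory chain (23 genes), histones (14) and lysosome (17) had 0 genes at an unadjusted p under 0.05. Of 17 heat shock genes, 21 ribosomal proteins and 12 feedback inhibitors of ERK, 1 each was lower and 0 higher. The p53 targets had 2 of 15 lower and 0 higher, and cholesterol and fatty acid synthesis 2 of 25 lower and 0 higher, CYP51A1 among them. Their medians lay between -0.033 and 0.035.

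Carry-over of neighbour cells was read from markers. Of 25 endothelial marker probes 20 were detected on 0 of the 4 HPAEC arrays, among them the probes of VWF, CDH5, PECAM1, KDR, TEK, TIE1 and FLT1. The summed raw intensity over the 25 probes was 5392 to 6148 beside HPAEC and 5012 to 6009 beside H838. A large part of this sum came from the SOX18 probe, with means of 2999 and 2955, so the sum says little about the other probes. The 3 endothelial genes that could be tested, SOX18, MMRN1 and EGFL7, were detected on all 4 arrays of each group, so H838 cells beside H838 cells held them too, and 0 of 3 reached an unadjusted p under 0.05. Of the 5 epithelial markers EPCAM and KRT18 were detected on all 8 arrays, while KRT8 was detected on 1 HPAEC and 0 H838 arrays, KRT19 on 0 and 1, and CDH1 on 1 and 2. Of 9 tested fibroblast and smooth muscle markers 1 was higher (TAGLN) and 2 were lower (COL1A2, COL3A1). Of the leukocyte markers CD68 alone was tested (0.25 ± 0.07), and PTPRC was detected on 0 of 8 arrays.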

How the data were processed

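Lysates of H838 cells were profiled on Illumina HT-12 bead arrays, per the labels. Per the file headers, the authors deposited the average bead intensity of every probe, not normalized, beside a detection p-value. They also deposited normalized intensity values, whose method is not given in the sources used here and which served as an alternative. No software or background subtraction of the scans is given there either. Arrays have no read depth, and their number limits the precision.

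Background was corrected with limma's nec (offset 16, controls inferred from the detection p-values). Quantile normalization of all 24 arrays and a log2 transform followed. Probes detected at p under 0.01 on at least 4 of the 8 arrays were kept (16572), and the brightest of a gene's probes stood for it. The annotation gave 1 symbol to 30080 of 47286 probes, several to 8, and did not list 17198. The RefSeq gene list held 30041 of their Entrez identifiers, and 0 symbols needed a change. Of the kept probes 3204 had no single name. Tests were limma fits, both sides, Benjamini-Hochberg over all genes: time and co-culture over 8 arrays (4 residual degrees of freedom), and 10 times, chip and a co-culture effect per window over 24 arrays (10 residual degrees of freedom). R 4.3.3, limma 3.58.1 and data.table (version 1.17.8) were used. The fit over 8 arrays, with and without chip and without the replicate 2 pair, was tested on simulated data. So was the late effect over 24 arrays, and the other fits and contrasts were not.

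Named genes were the 12 smallest p-values in each direction, since under 5 genes passed the threshold, plus for each list the 4 largest differences and members shown for their role. Counts at an unadjusted p of 0.05 were added after the adjusted threshold gave 0 genes. The comparison, its members and the gene lists were chosen with earlier results of these data known. Sequences are from RefSeq (GRCh38.p14). Of the described genes on the searched lists, HMOX1, GSR, MT1E, MT1F, EIF4EBP1, PYCR1 and SHMT2 had no entry among those used.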

Additional observations from a re-analysis of the deposited data

Results flagged for a closer look

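Each of the 24 genes was examined in both groups of 4 arrays, 48 groups in all, for an array whose gap to its nearest neighbour took up a larger share of the group's range than Dixon's critical value for 4 samples. Chance marks about 1 in 20 such groups, and 3 were marked. The 4 arrays of a group come from different times, so an array of 10 h can stand apart through its time. CCDC85B on the H838 array of 10 h was at 8.25, against 7.80 to 7.84 on the other H838 arrays (ratio 0.90). LRWD1 on the HPAEC array of 10 h was at 9.93, against 9.77 to 9.79 (ratio 0.87). NAPEPLD on the H838 array of 10 h was at 8.21, against 7.91 to 7.96 (ratio 0.834). Without either 10 h array the differences of all 3 genes kept their sign.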

How the results depend on the processing

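The count of genes past the adjusted threshold, 0 as reported, was 92 (50 higher, 42 lower) without background correction, 98 (51 and 47) with the authors' normalized values, 19 (2 and 17) under median scaling, 14 (9 and 5, all among the 24 named genes) with detection required on all 8 arrays, and 2 (DDIT3 and PCK2) with the mean over a gene's probes. It was 0 with looser or no detection filters, with chip as a fixed term or random block, within chip 2, over 24 arrays, and without any 1 array (0 to 0). Median scaling moved the median of all genes to -0.091, so its split is relative to that shift. The count at an unadjusted p under 0.05, 1378 (51.7% higher), was 834 under median scaling (6.35% higher), 607 with chip as a fixed term, 860 within chip 2 and 770 over 24 arrays, and 978 to 1311 without 1 array. Over the 24 arrays 17 genes passed at 10 to 24 h with chip left out. The step from 10 and 15 h to 24 h had 1 gene under median scaling. In the check on the unused pair, calls at the adjusted threshold with the same sign numbered 31 of 76 (40.8%) under median scaling. With the authors' values they numbered 14 of 17 (82.4%). Over all genes the shares with the same sign were 28.8% under median scaling and 58% with the authors' values. The cause of these moves was not tested. With the replicate block the count was 0 genes and 1261 unadjusted. Deviations of same-numbered duplicates correlated over genes at 0.0070 (24 h) and 0.155 (0 h), and some of these arrays shared a chip, so pairing was not settled.

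Of 2722 values of 137 genes under 20 alternatives 2712 kept their direction, and 0 of the 24 named genes turned. Size was less stable for dimmer genes. Without background correction STC2 gave 0.31, KIAA1958 0.34 and CXCL1 0.30, against 0.68, 0.57 and 0.51 in the main fit. The bright ASNS gave 0.44 against 0.45. ATF4 was -0.046 under median scaling and -0.017 with the authors' values. Within chip 2, CXCL8 was 0.054, TNFRSF1B 0.044, SEL1L 0.012, EGLN1 -0.064 and FOSL2 0.0030. With chip as a fixed term EGLN1 was -0.034 and FOSL2 0.041, and over 24 arrays FOSL2 was 0.082. Leaving out either 10 h array gives 1 estimate by construction, as does either 15 h array. Dim genes detected on few arrays of a group (SEL1L, KIF24, OAS1, CXCL12) are limited by signal over background.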

Other observations

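Among the kept probes, 3204 had no single gene name in the annotation used and were tested apart from the named genes. Of these 0 passed the adjusted threshold (limma, smallest adjusted p = 0.227) and 342 had an unadjusted p under 0.05.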
